A study of Mus musculus with 5 samples.

Results

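Mouse embryonic stem cell-derived cells that had been exposed to 2 µM MPA for 3 days, from day 5 to day 8 of culture, were compared with unexposed cells collected at the same age. This pair makes up 2 of the 5 arrays of the series, with 1 array on each side. Every probe set that carries 1 gene symbol entered the comparison, and no gene was chosen by its value. The cells had been grown on gelatin under conditions meant to yield pancreatic cells, and MPA went into cultures that had already differentiated for 5 days. The other 3 arrays hold unexposed cells at day 5 and day 6, and cells at day 6 after 1 day of the same dose. The labels do not write MPA out, name the line of stem cells or say whether cultures were pooled, and no vehicle is named for the controls. Because each group is 1 array, a difference carries no spread between cultures and no test, and its precision is limited by that.

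During development the pancreas buds from an epithelium of the gut tube, and the transcription factor Neurog3 starts the endocrine programme in scattered cells of that epithelium. Those cells switch on further factors such as Neurod1 and Isl1, make secretory granules and then release peptide hormones such as glucagon, somatostatin and ghrelin. Stem cell cultures rarely reach a single fate, so neural, muscle and connective tissue cells usually grow beside the endoderm. The lists of genes below therefore cover these other cell types as well as the pancreatic ones, along with the signalling pathways and the metabolic and growth genes that such cultures express.

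Signal is the MAS5 intensity of a probe set, scaled so that each array has the same trimmed mean. Values under 86.8, the median of all probe sets over the 5 arrays, were raised to that floor before folds were taken, because dim MAS5 signals scatter widely. Of 18193 genes, 12599 exceeded the floor on either or both day 8 arrays and are called measured. Where 1 of the arrays lies at the floor, the fold can only be a minimum and is given as "at least". With MPA, 469 of the 12599 genes were higher by 2-fold or more (3.72%) and 401 were lower by as much (3.18%), 6.91% in all, and the median log2 difference over all measured genes was -0.02. Any difference above 0 was found in 48.1% of genes and any below 0 in 51.9%, which are the shares to read each list against. In the middle of the range, from the 25th to the 75th percentile of genes, log2 differences ran from -0.31 to 0.29. Among 3913 genes with a signal of 1000 or more on both arrays, 62 were higher by 2-fold or more and 11 were lower.

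The day 8 arrays had like signal distributions, with medians of 94.5 in the control and 93.5 with MPA. The ratio between the 3' and 5' probe sets, which grows as RNA is degraded, was 1.55 and 1.57 for Gapdh and 2.81 and 2.71 for Actb. Spiked control transcripts set the technical scatter: 18 hybridisation spikes differed between the arrays by log2 -0.14 to 0.38 and 15 poly-A spikes by -0.52 to 0.675. Their medians were 0.07 for the hybridisation spikes and -0.12 for the poly-A spikes. Probe sets of the same gene disagreed by a median log2 of 0.30 (95th percentile 1.115, more than a 2-fold gap). Where the signal was 1000 or more they disagreed by 0.16 (95th percentile 0.574). Of the 344 genes that were 2-fold apart and had another measured probe set, every further probe set went the same way in 236 (68.6%). A further probe set that was itself 2-fold apart the same way was found in only 102 of them (29.65%). Of the genes named below as 2-fold apart, Aldoa, Ebf1, Pax6 and Zeb2 each had 1 further probe set that went the other way, and Cldn3, Ddb2, Pfkp, Pgm1 and Sox3 are described with theirs.

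**Figure D1:**
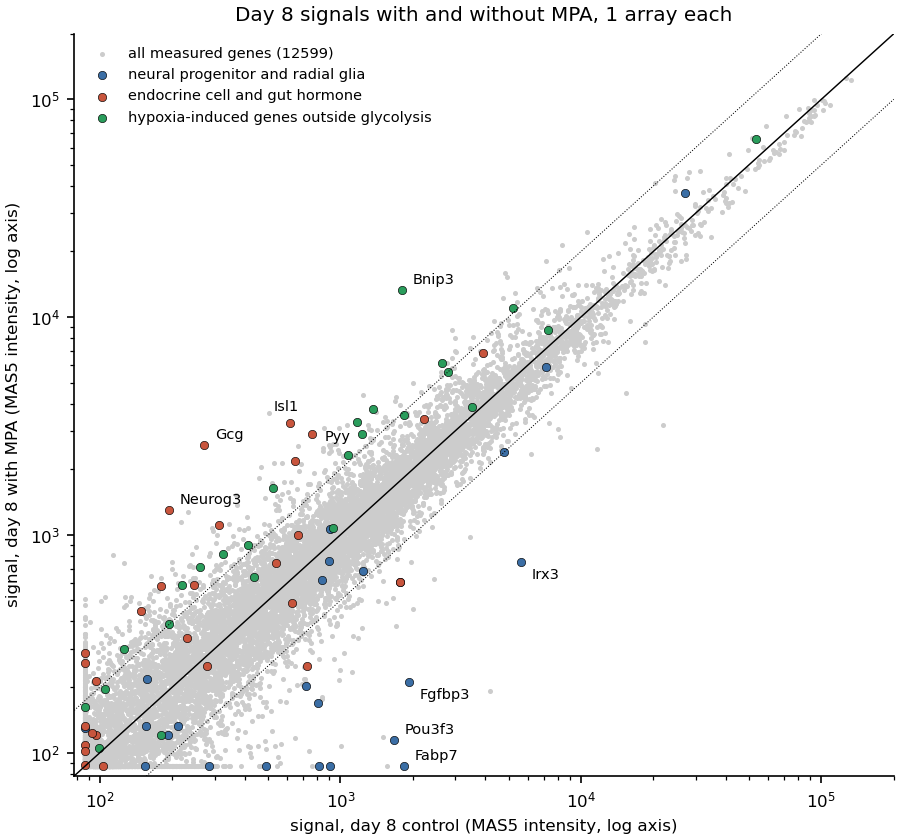
Signal of each measured gene in the day 8 control (horizontal, log axis) and after 3 days of MPA (vertical, log axis), with values under the floor drawn at the floor. The solid line marks equality and the dotted lines a 2-fold difference; each point is 1 gene on 1 array per axis, and the coloured points show neural progenitor genes lying mostly under the diagonal while endocrine and hypoxia-induced genes lie mostly above it.

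Genes of the neural tube showed the deepest reductions, with the lowest median of all 47 lists. Of 18 measured members of the list for dorsal neural tube and crest, 9 were lower by 2-fold or more with MPA and 1 was higher, against 3.18% and 3.72% of all genes, and the list median was a log2 difference of -1.30. In these bulk RNA samples, fewer cells of a type and less RNA per cell cannot be told apart. Of 10 patterning factors 10 were lower, 7 by 2-fold or more (median -1.99), while 8 crest genes were split evenly, with 2 of them 2-fold lower, 1 2-fold higher and a median of 0.10. Zic1, a zinc finger factor of the dorsal neural tube, had a signal of 4188 in the control and 193 with MPA, a 21.7-fold difference, and its other probe set went the same way (777 against 66.2). Pax3, which marks dorsal neural tube and crest, stood at 987 and 215. Msx1, a homeobox target of BMP signalling, went from 1004 in the control to 108 with MPA (9.33-fold lower), and its paralogue Msx3 from 758 to a value under the floor (at least 8.73-fold lower). Ednrb, the endothelin receptor of crest cells, was 12.7-fold lower (1506 against 118). By contrast Sox10, the defining factor of migrating crest, was dim on both arrays (under the floor in the control and 120.0 with MPA). The list was not lower as a whole at day 6, when 9 of 16 measured members were higher with MPA and 7 lower (median 0.30). By 2-fold or more, 5 were higher and 4 lower, against 4.02% and 3.15% of all genes at that day. Msx1 read 130 in the day 6 control and 362 with MPA. The difference between the days was not tested.

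Neural progenitor and radial glia genes were lower as well. Of 24 measured members 20 were lower with MPA, 11 of them by 2-fold or more, none was 2-fold higher, and the median was -0.93. Transcription factors again carried the difference, with 9 of 14 lower by 2-fold or more and a median of -1.77. Fabp7, the fatty acid binding protein of radial glia, had a signal of 1841 in the control and lay under the floor with MPA, at least 21.2-fold lower. The neural POU factor Pou3f3 went from 1675 in the control to 114 with MPA (14.7-fold), and Rfx4, a factor of the developing neural tube, from 905 to under the floor (at least 10.4-fold). Irx3, which divides the neural tube into domains, was 7.55-fold lower (5651 against 749). The SOXB1 factors that hold cells in a neural progenitor state were not reduced to the same degree: Sox1 was at least 5.63-fold lower, Sox3 4.77-fold and Sox2 2.00-fold (4784 against 2396). A second, dim probe set of Sox3 did not show the difference (136 against 147). Fgfbp3, a secreted carrier of fibroblast growth factors, stood at 1925 and 209.9, and it had also been lower at day 6 (4679.7 against 682).

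Among 23 neuron genes, 17 were lower and 6 of these by 2-fold or more, while 3 were 2-fold higher; the median was -0.67. Neurog1, the proneural factor of sensory and dorsal neurons, had a signal of 1558 in the control and lay under the floor with MPA (at least 18.0-fold lower). Nhlh2, a helix-loop-helix factor of young neurons, was 5.76-fold lower (549 against 95.2), and Dcx, a microtubule protein of migrating neurons, 2.80-fold lower (477 against 171). Ebf1, a factor of differentiating neurons, was under the floor with MPA (at least 3.79-fold lower), and so was the netrin receptor Dcc, which is not on that list (at least 4.43-fold lower). The neuron genes that were 2-fold higher, Neurod1, Isl1 and Onecut2, are also expressed by endocrine cells. Of 9 proneural factors 6 were lower and 3 higher (median -0.63), 4 and 3 of them by 2-fold or more, and of 14 neuronal products 11 were lower, 2 by 2-fold or more (median -0.67). The summed signal of the whole neuron list was 16210.0 in the control and 16060 with MPA.

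Components of Notch signalling, which keeps neural progenitors from differentiating, did not move as a group (12 of 22 higher, 10 lower, median 0.16, a sign that changed with the processing). Its members with the largest differences were lower. Hes5, the Notch target typical of neural progenitors, had a signal of 815 in the control and lay under the floor with MPA, and its other probe set read 299 and 141. Nrarp, a feedback inhibitor, was at least 5.77-fold lower, and the receptor Notch1 was 3.28-fold lower (709 against 217). After 1 day of MPA Notch1 had been higher instead (245 in the day 6 control and 735 with MPA).

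**Figure D2:**
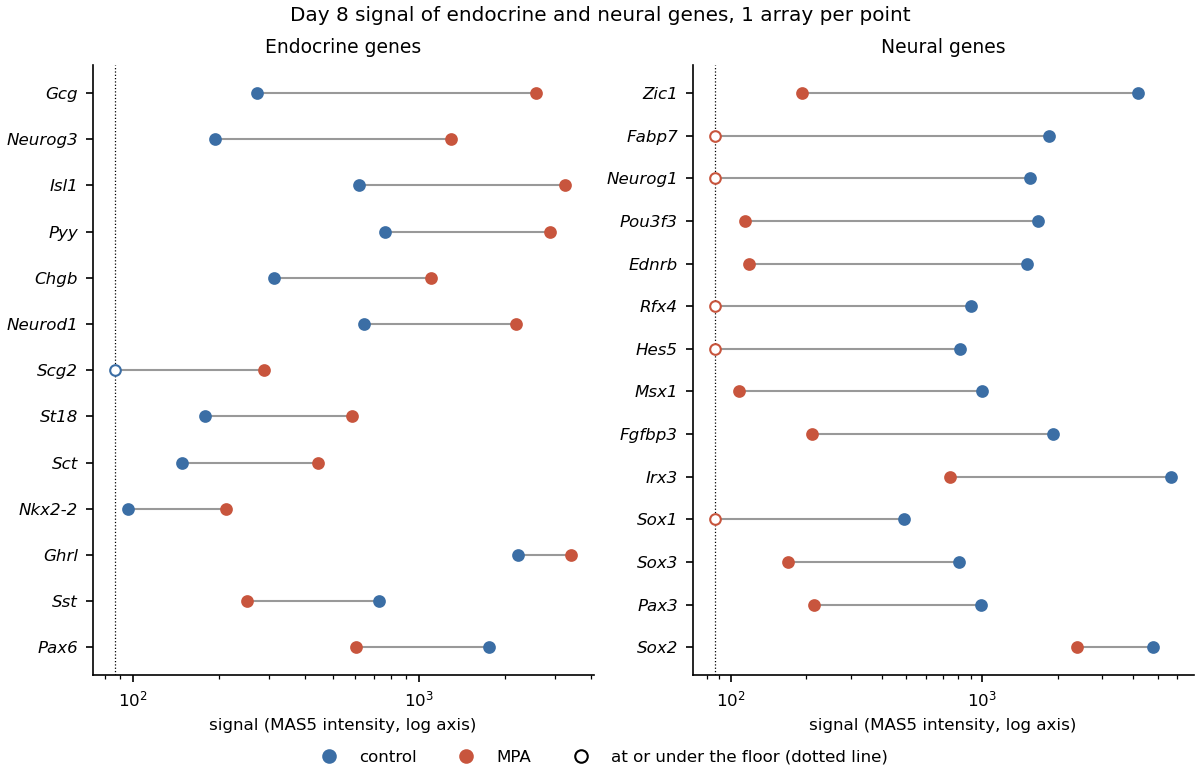
Signal in the day 8 control (blue) and after 3 days of MPA (red) for 13 endocrine genes (left) and 14 neural genes (right), on a log axis, 1 array per point; open points lie at or under the floor, which the dotted line marks. Most endocrine genes lie further right with MPA, apart from Sst and Pax6, and the neural genes shown lie further left, several of them at the floor.

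Endocrine and gut hormone genes were higher. Of 28 measured members 23 were higher with MPA, 12 by 2-fold or more, and 2 were 2-fold lower; the median was 0.61 against -0.02 for all genes. Gcg, which encodes glucagon and the related gut peptides, had a signal of 271 in the control and 2572 with MPA, a 9.49-fold difference and the largest upward difference among genes that exceeded the floor on both arrays. Neurog3, the factor that commits cells to the endocrine fate, stood at 193 and 1295 (6.71-fold), while its second probe set was near the floor on both arrays (9.96 and 106). Both genes had been under the floor on the day 5 and day 6 arrays.

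The other endocrine factors did not all follow. Isl1, which acts in maturing islet cells and also in motor neurons and heart progenitors, was 5.27-fold higher (617 against 3249), and its second probe set was 6.45-fold higher. Neurod1, a target of Neurog3, stood at 646 and 2184 (3.38-fold), the zinc finger factor St18 at 179 and 585, and Nkx2-2 at 95.9 and 213. Pax6, which serves both neural tube and endocrine cells, went the opposite way, from 1770.5 in the control to 605 with MPA (2.92-fold lower). Pax4 lay under the floor on both arrays.

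Of the hormones, Pyy, peptide YY of gut and early islet cells, was 3.78-fold higher (764 against 2890.1), and Sct, secretin, stood at 148 and 446. Ghrl, ghrelin, was expressed on both arrays and differed by less than 2-fold (2224 against 3415). Sst, somatostatin, was the exception, 2.91-fold lower with MPA (727 against 249.97). Insulin was hardly detected: Ins2 read 92.5 and 123, close to the floor. Among proteins of secretory granules, 8 of 10 were higher, 4 by 2-fold or more, including Chgb, chromogranin B (312 against 1108), Chga (245 against 585) and Scg2, at least 3.31-fold higher.

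At day 6 only 15 members of the list were measured, 5 of them higher with MPA, with a median of -0.11. By 2-fold or more, 3 were higher and 3 were lower. Sct was the clearest of those that were higher, with 203 in the day 6 control and 1124 after 1 day of MPA, and Neurod1 read 98 and 249. Isl1, higher at day 8, was 2.17-fold lower at day 6 (244 against 112). The change in the difference from day 6 to day 8 was not tested, as each group has 1 array.

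Genes of epithelia, the tissue in which endocrine cells form, were higher almost throughout. Of 29 measured members 28 were higher, 12 by 2-fold or more, and none was 2-fold lower; the median was 0.86. Krt19 and Krt7, keratins of duct-like epithelium, stood at 2999.9 and 8003 and at 1409.6 and 3672. Tight junction proteins were among the members with the largest differences, Cldn3 at 101 and 369 and Ocln at 294 and 1041, together with the splicing regulator Esrp2 (241 against 813) and the linker protein Eppk1 (663 against 2551). A dim further probe set of Cldn3 went the other way (159.7 against a value under the floor). Cdh1, E-cadherin, which defines epithelial cells, was 1.79-fold higher (7607 against 13635) and so under the 2-fold limit. Summed over the list, signal was 101497 in the control and 182083 with MPA, beside 16625 and 25977 over the endoderm list. The part that a larger share of epithelial cells, or a smaller share of neural cells, may have in the endocrine values was not tested.

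Endoderm factors and other early endoderm genes were higher to a lesser degree, 12 of 16 with a median of 0.41. By 2-fold or more, 2 were higher and 2 were lower. Of the 10 factors alone 7 were higher (median 0.35), with 1 of them 2-fold apart each way. Foxa1, a pioneer factor of gut endoderm, was 2.21-fold higher (4339 against 9593), and Foxa2 1.93-fold (1884 against 3635). Shh, the hedgehog ligand of gut epithelium that is held low in the pancreatic bud, was under the floor in the control and 227 with MPA, at least 2.62-fold higher. The members of the list with the deepest reductions were Sox17, a factor of early endoderm, and the chemokine receptor Cxcr4. Sox17 was 3.20-fold lower (1550.3 against 485) and Cxcr4 at least 5.27-fold lower (457 against a value under the floor). Sox17 had been higher after 1 day, at 3669.9 in the day 6 control and 8178 with MPA.

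The defining marker of pancreatic progenitors was all but absent from both arrays. Pdx1 had a signal of 78.6 in the control, under the floor, and 90.4 with MPA, just above it. Ptf1a was 130.2 in the control and under the floor with MPA, and Nkx6-1 was under the floor in the control and 103 with MPA. In the list of 18 measured progenitor genes, 14 were higher and 3 of these by 2-fold or more, with a median of 0.30. These were Sox9, which marks the progenitor epithelium but also cartilage and crest (207 against 503), Prox1 (169.8 against 357) and Nkx2-2. Of 12 exocrine pancreas genes on the array 7 were measured, all of them dim, and the direction of their median changed with the processing.

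**Figure D3:**
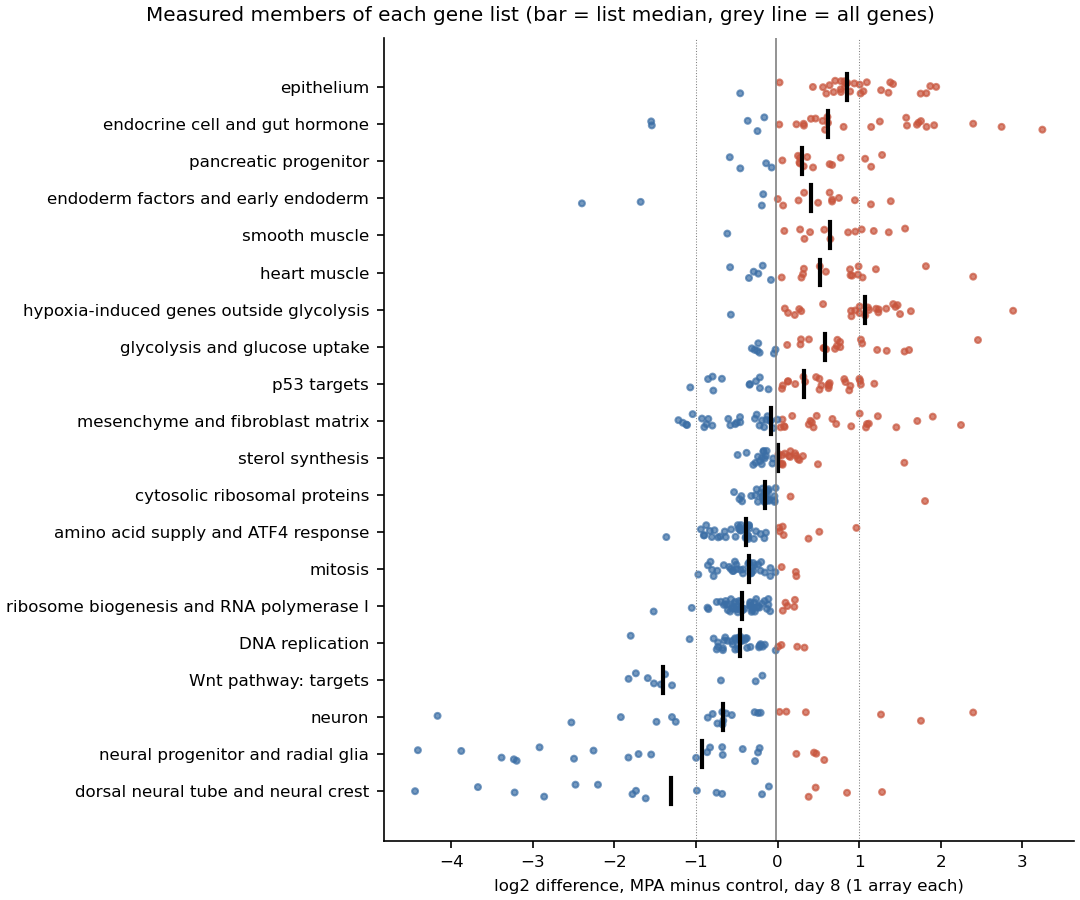
Log2 difference between MPA and control at day 8 for each measured member of 20 gene lists, 1 array per group; the black bar is the list median, the grey line the median of all measured genes and the dotted lines a 2-fold difference. Epithelium and hypoxia-induced genes lie almost wholly to the right, DNA replication, mitosis and ribosome biogenesis genes almost wholly but narrowly to the left, and the neural lists spread far to the left.

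Muscle genes were higher. Of 13 smooth muscle genes 12 were higher and 4 of these by 2-fold or more (median 0.65), among them the actin binding proteins Tagln (8338 against 21449.9) and Cnn1 (409.8 against 1211) and the light chain Myl9 (1531 against 3466). Cald1, caldesmon, was 2-fold or more higher on 3 of its 4 probe sets. Of 21 heart muscle genes 15 were higher, 4 by 2-fold or more, with a median of 0.52. Actc1, cardiac actin, had a signal of 1239.9 in the control and 4373 with MPA (3.53-fold), and the natriuretic peptides Nppa and Nppb were 2.06-fold and 2.31-fold higher. The products on the list, which include these peptides, were higher (11 of 13), with Actc1, Nppa and Nppb the only ones 2-fold higher. The heart factors were split (4 of 8), with Isl1 the only one that was 2-fold higher.

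Connective tissue genes had no common direction: 22 of 49 were higher and 27 lower, 9 and 5 of them by 2-fold or more, with a median of -0.08. Of 15 factors on the list 10 were lower and 5 higher (median -0.19), 2 and 4 of them by 2-fold or more. Foxf1, a hedgehog-responsive factor of gut mesenchyme, stood at 125 and 468 (3.74-fold), and Tcf21 was under the floor in the control and 412 with MPA (at least 4.75-fold). Tbx18 was 3.85-fold higher (135 against 518) and the receptor Pdgfra 3.28-fold higher (343 against 1125). Zeb2, a factor of neural crest and mesenchyme, was 2.32-fold lower (907 against 391). Of 13 somite genes 9 were lower (median -0.36), but 3 were 2-fold higher, Tbx18 among them, and 1 was 2-fold lower.

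Pluripotency genes did not separate the arrays (11 of 19 higher, median 0.09). Pou5f1, the defining factor of stem cells, had a signal of 7598 at day 5, and at day 8 it read 96 in the control and lay under the floor with MPA. Genes of endothelium and blood were few (9 measured of 29 on the array), and the sign of their median changed with the processing. Of 13 measured genes of liver and yolk sac 9 were higher (median 0.25), among them Ttr, the carrier of thyroid hormone (1234 against 1742), and Vtn, vitronectin, the single member 2-fold apart, which was 3.33-fold higher (519 against 1728). Afp, the marker of fetal liver and yolk sac, was 119.8 in the control and under the floor with MPA, and 1 of its other 3 probe sets went the other way near the floor (79.7 against 90.9).

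Genes that cells induce when oxygen is scarce formed the list with the largest upward shift. When oxygen falls, hydroxylases of the EGLN family stop marking the HIF proteins for breakdown, and HIF then binds hypoxia response elements with the core letters ACGTG or GCGTG near its target genes. The targets include glycolytic enzymes, brakes on mitochondria and the EGLN enzymes themselves. Of 25 measured hypoxia-induced genes outside glycolysis, 24 were higher with MPA at day 8 and 15 of these by 2-fold or more, with a median of 1.07, while 3.72% of all genes were 2-fold higher. Of 26 genes of glycolysis and glucose uptake, 19 were higher, 7 by 2-fold or more, with a median of 0.58. None of the genes on either list was 2-fold lower.

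Promoters of members with the largest differences are shown with the letters that HIF reads marked. The lines give the 250 bases before the transcription start of the 2 genes with the largest differences on each list that have an entry (Bhlhe40 has none), 5′ to 3′ on the gene's strand from RefSeq (GRCm38.p6), with ACGTG or GCGTG on either strand in capitals (CACGT and CACGC on the printed strand).
Bnip3, chr7:138909507-138909756, minus strand: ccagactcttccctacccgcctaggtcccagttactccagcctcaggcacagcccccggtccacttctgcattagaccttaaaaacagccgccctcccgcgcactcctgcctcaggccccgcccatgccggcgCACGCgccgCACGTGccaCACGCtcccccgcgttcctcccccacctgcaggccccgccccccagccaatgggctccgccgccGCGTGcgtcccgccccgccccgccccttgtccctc
Ero1a, chr14:45318573-45318822, minus strand: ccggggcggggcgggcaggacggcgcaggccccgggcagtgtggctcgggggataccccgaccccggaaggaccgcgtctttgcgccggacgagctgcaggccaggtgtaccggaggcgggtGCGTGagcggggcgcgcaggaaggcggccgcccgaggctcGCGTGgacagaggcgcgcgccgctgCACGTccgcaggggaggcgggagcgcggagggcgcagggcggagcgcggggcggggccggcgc
Pfkp, chr13:6648772-6649021, minus strand: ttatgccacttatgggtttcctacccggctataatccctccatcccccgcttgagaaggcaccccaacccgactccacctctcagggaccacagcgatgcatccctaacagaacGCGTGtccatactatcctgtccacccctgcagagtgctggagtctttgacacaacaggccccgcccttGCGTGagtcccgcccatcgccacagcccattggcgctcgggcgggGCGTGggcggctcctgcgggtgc
Pfkl, chr10:78009808-78010057, minus strand: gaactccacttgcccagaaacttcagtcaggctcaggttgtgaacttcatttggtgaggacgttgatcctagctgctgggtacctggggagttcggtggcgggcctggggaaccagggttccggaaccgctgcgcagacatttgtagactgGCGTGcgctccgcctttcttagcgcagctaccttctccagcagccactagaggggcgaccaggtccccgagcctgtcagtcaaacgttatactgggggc
The windows held 5 matches in Bnip3, where an overlapping pair reads CACGTG, and 3 in Ero1a, 3 in Pfkp and 1 in Pfkl. Of 51 measured members of both lists 46 have such a window. At least 1 match was present in 78.4% of the 37 windows of the glycolysis list and in 76.9% of the 26 windows of the hypoxia list, where some genes have several windows, and in 38.6% of all 32851 windows of that length. A match is a description of letters and not a bound site, and the base composition of the windows was not compared. Both lists hold known HIF targets, whatever their difference here, so these shares say nothing about MPA. They also count members that were not higher, such as Slc2a1.

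Bnip3, a mitochondrial protein that triggers removal of mitochondria, had a signal of 1803 in the day 8 control and 13338 with MPA, a 7.40-fold difference. At day 5 it stood at 13658, in the day 6 control at 14278 and after 1 day of MPA at 2921. The day 8 control was the lowest of the 5 arrays, and the day 8 cells with MPA were back near the day 5 value. Members of the list differed in this. Egln1 was also near its day 5 value at day 8 with MPA (2579 and 2902). Ddit4 (39138 and 3790) and Egln3 (3716 and 298) stayed far under theirs. The day 8 control was also the lowest array for Ero1a, an oxidase that forms disulfide bonds in the endoplasmic reticulum, with 5687 at day 5, 5640.0 and 1525 at day 6 without and with MPA, and 1167 and 3305 at day 8. The same held for Fam162a, a mitochondrial target of HIF (32936, 28342, 11959, 4919 and 15286 in the same order of arrays).

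Of 7 measured sensors and regulators of the response 6 were higher, 4 by 2-fold or more, and 1 was lower (log2 difference -0.57). The oxygen sensors Egln1 and Egln3 were 2.35-fold and 2.36-fold higher (1232 against 2902, and 126 against 298). Bhlhe40, a repressor that HIF induces, stood at 526 and 1634, and Ddit4, an inhibitor of mTORC1, at 1367 and 3790.2. Ankrd37, a small protein induced by HIF, was 2.67-fold higher (219.5 against 586). Hif1a itself, which is controlled mainly at the protein level, differed little (7261 against 8732, and neither of its other probe sets was higher). Vegfa, the angiogenic growth factor that HIF induces, read 435 and 641, a 1.47-fold difference.

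In glycolysis the enzymes carried the difference, with 16 of 17 higher, 7 by 2-fold or more, and a median of 0.77. The phosphofructokinases Pfkp (233 against 1277, 5.49-fold) and Pfkl (688 against 2104, 3.06-fold), which catalyse the committed step, were higher, although a pair of dim further probe sets of Pfkp went the other way. Pdk1, which keeps pyruvate out of mitochondria, was 2.94-fold higher (848 against 2494), and 3 of its probe sets were 2-fold or more higher. The aldolase Aldoa (10584 against 24679), the isomerase Tpi1 (7174 against 18135) and the lactate dehydrogenase Ldha (20365 against 41354) were 2.03-fold to 2.53-fold higher at high signal. Glucose transporters differed less: Slc2a1 read 29686 and 23859, and Slc2a3 19376 and 25299. The 5 genes of the pentose phosphate branch had a median of -0.22.

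The direction at day 8 was the reverse of that after 1 day of MPA. At day 6, 22 of 26 measured hypoxia-induced genes were lower with MPA and 13 of these by 2-fold or more (median -0.93), and 25 of 26 glycolysis genes were lower, 13 by 2-fold or more (median -0.96), against 3.15% of all genes at that day. Pfkp, for example, read 2421 in the day 6 control and 639 with MPA, and Pdk1 4378 and 1429. No array is shared between the day 6 and day 8 pairs. Over all 11007 genes measured at both days, 49 were 2-fold higher at day 8 and 2-fold lower at day 6, 31 showed the reverse, 39 were 2-fold higher at both days and 49 were 2-fold lower at both. Upp1, a uridine phosphorylase, and Pgm1, phosphoglucomutase, were among the 49 that were lower than the control at day 6 and higher at day 8. Upp1 read 10131 and 2113 at day 6 and 371 and 1364 at day 8, without and with MPA. Pgm1 read 3248 and 929 and then 569 and 2132, although the other probe set of Pgm1 did not show the day 8 difference. The difference between the days was not tested.

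**Figure D4:**
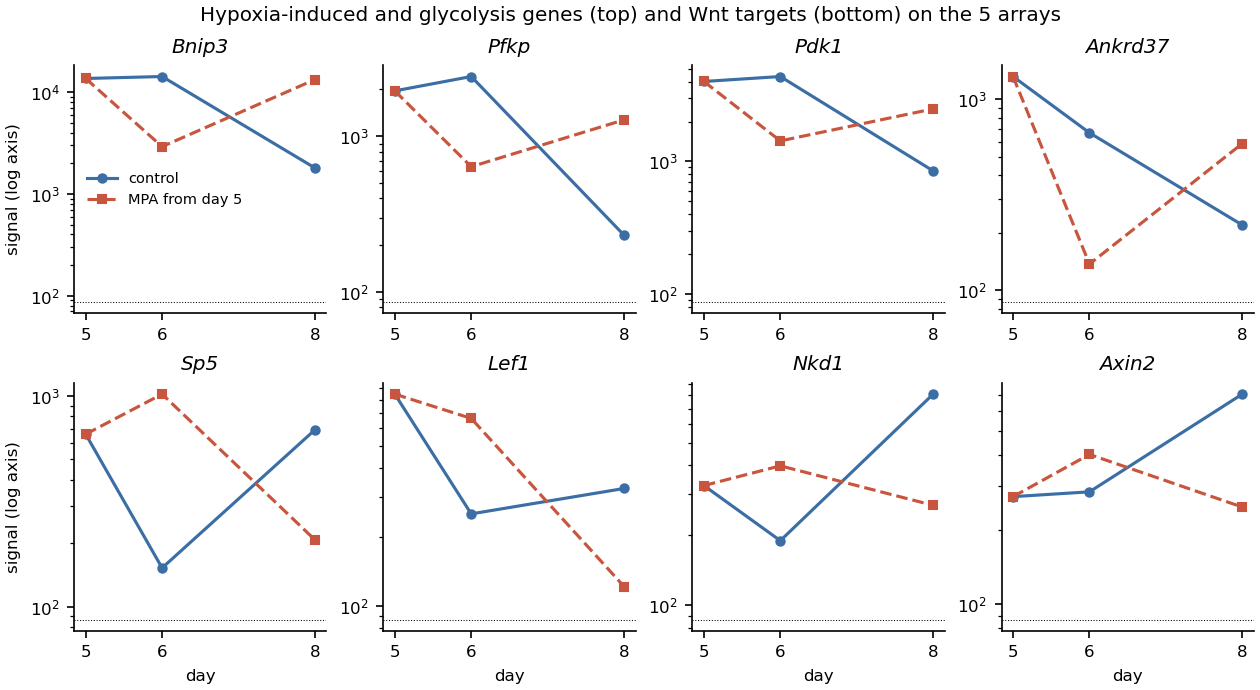
Signal (vertical, log axis) against day of culture (horizontal) for 4 genes of hypoxia and glycolysis (top) and 4 Wnt targets (bottom), with control arrays in blue, MPA arrays in red, 1 array per point and the dotted line at the floor. In the top row MPA lies under the control at day 6 and above it at day 8, and in the bottom row the order is the reverse.

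Direct targets of Wnt signalling, genes that beta-catenin and TCF factors switch on when a Wnt ligand is received, were lower with MPA at day 8. Of 10 measured targets 10 were lower, 7 by 2-fold or more, with a median of -1.40. Sp5, a zinc finger factor, had a signal of 691 in the control and 207 with MPA (3.33-fold lower), and Ccnd1, cyclin D1, stood at 3457 and 975 (3.54-fold lower), with 2-fold or larger differences on all 3 of its probe sets. Axin2, the feedback inhibitor that serves as the usual readout of the pathway, was 2.86-fold lower (705 against 247), Nkd1, another feedback inhibitor, 3.01-fold lower (810.2 against 269), and Lef1, a DNA-binding partner of beta-catenin, 2.69-fold lower (327 against 121). The ligand Wnt3a was at least 3.06-fold lower (266 against a value under the floor).

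These targets, too, differed in direction between the days. At day 6, 8 of 11 measured targets were higher with MPA and 4 of these by 2-fold or more, with a median of 0.53. Sp5 read 153 in the day 6 control and 1022 with MPA, and Lef1 253 and 663. In the day 5 cells, before MPA was added, Sp5 stood at 659 and Lef1 at 848. The difference between the days was not tested.

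Of 12 receptor genes of the pathway 9 were higher and 3 lower (median 0.37), with 1 of them 2-fold apart each way, and of 9 inhibitors 5 were higher and 4 lower. The receptor Fzd5 was 3.96-fold higher with MPA (459.8 against 1821), and Shisa3, which holds Frizzled receptors inside the cell, was 7.13-fold higher (113 against 805). Dact2, which binds the Wnt transducer Dishevelled, was 4.39-fold higher (468 against 2058). The secreted inhibitor Sfrp2, a gene of neural and somite tissue, was 4.36-fold lower (1997 against 458). Over the whole list of 43 genes 19 were higher and 24 lower, and the sign of the median changed with the processing.

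Retinoic acid, which patterns both the hindbrain and the pancreatic region, was represented by its binding proteins at high signal. Crabp2 had a signal of 21976 in the control and 3206 with MPA (6.85-fold lower), and Crabp1 11698 and 2465 (4.74-fold lower); the former was among the genes with the largest reductions at high signal. Both had been lower after 1 day, Crabp2 at 35426 and 14248. The enzyme Cyp26b1, which clears retinoic acid, was 3.14-fold higher (983 against 3093), whereas Cyp26a1 read 1985 and 1359. All 5 measured genes for enzymes that act on retinol or retinaldehyde were higher, though the lowest log2 difference was only 0.025. Aldh1a2 was the only one of them higher by 2-fold or more (195 against 401). Among 23 genes of the pathway 16 were higher and 7 lower, with a median of 0.30.

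Hox genes, which give cells a position along the body axis, were mostly lower. Of 22 measured members 15 were lower, 5 by 2-fold or more, and 1 was 2-fold higher (median -0.34). Hoxd1 (566 against 109), Hoxd3 (421 against 106) and Hoxd8 (275 against 127) account for 3 of those 5, and Hoxb6 (839 against 180.5) and Hoxb5 (1497 against 613) for the others. Hoxb1, an anterior member that responds early to retinoic acid, was 2.45-fold higher (242 against 593). None of the 7 measured HoxA and 4 measured HoxC genes was 2-fold apart.

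Genes of cell growth were lower by small amounts in most members. Of 40 DNA replication genes 36 were lower (median -0.46), of 36 mitosis genes 33 were lower (median -0.35) and of 52 genes of ribosome biogenesis and RNA polymerase I 47 were lower (median -0.44), where 51.9% of all genes were lower. Few passed 2-fold: 2 replication genes, no mitosis gene and 2 ribosome biogenesis genes.

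The replication genes that were 2-fold lower were Tk1, the thymidine kinase of S phase (939.7 against 269.9, 3.48-fold), and Cdc45, a part of the replicative helicase (795 against 377). Of 8 cyclins and kinases of the G1 phase 7 were lower (median -0.39), 3 by 2-fold or more: Ccnd1, given with the Wnt targets, Ccnd2 and Ccne1. Ccnd2 had a signal of 18502 in the control and 7713 with MPA and was 2-fold or more lower on all 7 of its probe sets, and Ccne1 stood at 968 and 393. In contrast, Ccnd2 had been level at day 6 (2805 against 2504). Cdkn1a, the p21 inhibitor of cyclin-dependent kinases, was 2.28-fold higher (2711 against 6169) and had been higher by a similar ratio after 1 day (2191 against 4797).

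In ribosome biogenesis, Polr1b, a core subunit of RNA polymerase I, was 2.07-fold lower (578 against 279) and Rrp9, a nucleolar RNA processing factor, at least 2.86-fold lower. Gnl3, nucleostemin, a nucleolar GTP-binding protein, stood at 8248 and 5958. At day 6 this list had been centred on 0, with 26 genes higher and 26 lower. Of 31 cytosolic ribosomal proteins 29 were lower, by a median of only -0.15, close to the -0.12 of the poly-A spikes. Rps27 was higher (250.3 against 876, and at day 6 as well, 215 against 537). Its probe set is dim beside a summed signal of 1.89e+06 over the list in the day 8 control.

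Genes that supply building blocks were lower in the same modest way. Of 43 genes of amino acid supply and the ATF4 stress response 36 were lower (median -0.39), among them 12 of 12 aminoacyl-tRNA synthetases, and Cth, which makes cysteine, was the single member lower by 2-fold or more (832 against 324). Of 12 purine synthesis genes 11 were lower (median -0.52), 3 by 2-fold or more, including Prps1, which makes the sugar phosphate that purines are built on (2411 against 1091), and Pfas (2117 against 1042). Of 3 genes of the branch from inosine to guanine nucleotides 2 were higher and 1 lower (median 0.03), none by 2-fold; the lower one was Impdh1, inosine monophosphate dehydrogenase (415 against 353), and its paralogue was not analysed here. Gch1, which turns GTP into the biopterin cofactor, was 4.17-fold higher (367 against 1529.8), on both of its probe sets. Of 45 respiratory chain genes 40 were lower with a median of -0.12, and of 31 proteasome genes 23 with the same median. Both medians are no larger than that of the poly-A spikes (-0.12), so they are not read as a difference of these genes.

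**Figure D5:**
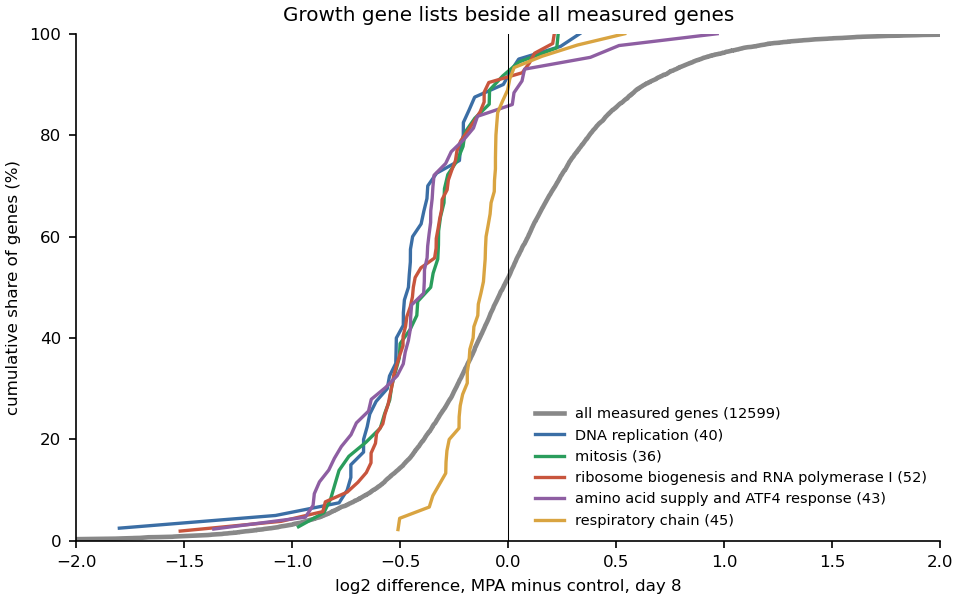
Cumulative share of genes (vertical, percent) against the log2 difference between MPA and control at day 8 (horizontal) for 5 lists and for all 12599 measured genes, with the number of genes of each list in brackets; 1 array per group. The curves of replication, mitosis, ribosome biogenesis and amino acid supply are shifted left of the grey curve, and that of the respiratory chain is shifted less.

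Targets of p53, the factor that halts damaged or stressed cells, were higher in 23 of 34 cases, 4 by 2-fold or more, with a median of 0.33. Besides Cdkn1a these were the kinase Plk2 (2844 against 5702), the cyclin-like Ccng2 (2744 against 5566) and the death receptor Fas (88.5 against 179). Mdm2, the p53 feedback inhibitor, differed little at day 8 (1463 against 1530.2, and 1314 against 1123 on its other probe set) after a larger difference at day 6 (1109 against 2106). Ddb2, a DNA repair factor, was 2.10-fold lower (383 against 182), though not on its other probe set (152 against 164). At day 6 the list had a median of 0.69, with 28 of 35 genes higher and 7 by 2-fold or more, against 4.02% of all genes.

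Sterol and fatty acid synthesis genes were level at day 8, with 17 of 32 higher, a median of 0.01 and a single 2-fold difference, in the cholesterol exporter Abca1 (158 against 463). At day 6 the same 32 genes had included 31 that were lower, 18 of them by 2-fold or more (median -1.03). Hmgcs1, the entry enzyme of the pathway, read 38158 and 15546 at day 6, and 29898 and 32958 at day 8. Of 5 steroid receptors none was 2-fold apart, with Pgr, the progesterone receptor, at 128 and 94.1 and Nr3c1, the glucocorticoid receptor, at 244 and 236, although 1 of the other 4 probe sets of Nr3c1 was higher (162 against 265). Of 13 genes that glucocorticoids or progestins induce, 9 were higher, and Sgk1 (724 against 1532) and Ddit4 by 2-fold or more. Zbtb16 was 2.42-fold lower (1218 against 503), and the textbook target Fkbp5 read 1108 and 822.

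Among chemokines, Cxcl12, a secreted cue for migrating cells, had a signal of 502 in the control and 3626 with MPA (7.22-fold higher), and its second probe set was also 2-fold or more higher. Its receptor Cxcr4 was lower, as given above with the endoderm genes. Among Hedgehog components the ligand Shh and the mesenchymal target Foxf1 were higher. Of 6 measured genes, namely the Gli factors, Foxf1, Nkx2-2 and Nkx6-1, 5 were higher, Foxf1 and Nkx2-2 by 2-fold or more. Their summed signal was 3878 in the control and 3482 with MPA, and Nkx2-2 and Nkx6-1 are also given above with the pancreatic genes. The 6 measured receptor genes were all lower (median -0.33), but only 1 by 2-fold or more, the co-receptor Boc (3.48-fold, 594 against 171). The pathway readouts Gli1 (117 against 123) and Ptch1 (3306 against 3139), the latter counted among those receptor genes, were nearly level.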

How the data were processed

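The authors deposited 1 microarray signal per probe set and sample. Per the submitters' processing notes these are MAS5 values, with no version given; the intensities the authors deposited have a 2% trimmed mean that is the same on each array. Per the labels' protocols, 100 ng of total RNA was labelled by a 3' method, which reads transcripts near their end. Of 45101 probe sets, 34945 carry 1 gene symbol, 932 several and 9160 none in the platform annotation, beside 64 controls; 34741 of the symbols matched a RefSeq gene and none was updated. A gene was represented by its probe set with the highest mean over the 5 arrays. Signals were raised to the floor, and log2 differences were taken between the day 8 arrays, with no test. The computation used Python 3.11.15, numpy 2.4.6, pandas 2.3.3 and matplotlib 3.10.9 and was tested on simulated data. Columns of other samples numbered 0.

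The members and the 47 gene lists (1375 genes, 1273 matched to a gene of the array) were chosen with earlier results of these data known. Genes were named by rule: the 20 highest and 20 lowest differences above the floor, 15 each way with 1 array at the floor, 10 each way at a signal of 1000 or more, up to 6 members of each list with the largest differences, genes 2-fold apart the same way on 3 or more probe sets, and a set of markers fixed by name. Axin2, Cdh1, Chga, Egln1, Egln3, Fkbp5, Gli1, Hif1a, Hmgcs1, Ins2, Ldha, Lef1, Nkd1, Nkx6-1, Onecut2, Pax4, Pax6, Pgm1, Ptch1, Scg2, Slc2a1, Slc2a3, St18, Upp1 and Vegfa fell outside the rule and were named after their values were seen. Alternatives were other scalings, floors, pseudocount, probe set rules and folds.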

Additional observations from a re-analysis of the deposited data

Results flagged for a closer look

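The direction of some gene groups was opposite at day 6 and day 8. Glycolysis and glucose uptake genes had a median log2 difference of 0.58 at day 8 and -0.96 at day 6, and hypoxia-induced genes outside glycolysis had 1.07 at day 8 and -0.93 at day 6. Of 11007 genes measured at both days, 49 were 2-fold or more higher with MPA at day 8 and 2-fold or more lower at day 6. The reverse was seen in 31 genes, while 39 were 2-fold higher at both days and 49 were 2-fold lower at both. With 1 array per group the difference between the days was not tested.

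Probe sets without a gene name, or with several, were used in no comparison above. Of 4331 such probe sets that were measured at day 8, 252 were 2-fold or more higher with MPA and 94 were 2-fold or more lower, 7.99% in all, against 6.91% of named genes.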

How the results depend on the processing

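The counts of 469 genes higher and 401 lower by 2-fold or more rest on the floor and on the fold chosen. With the floor at the 25th percentile they became 2355 and 2419, with no floor 2809 and 3034, and with the floor at the 65th percentile 293 and 182. Requiring both arrays above the floor gave 374 and 258. At 1.5-fold the counts were 1435 and 1407, and at 3-fold 92 and 97. Quantile normalization gave 447 and 403, median centring 460 and 392, log2(signal + floor) 512 and 545, the mean over probe sets 380 and 306, the brightest probe set of the day 8 pair 483 and 404, and leaving out shared-sequence probe sets 423 and 364. Of the list medians under the alternatives, 473 moved by less than 0.32 (log2) and 17 by more. Medians near 0 changed sign under some alternative for exocrine pancreas (-1.03 to 0.65), endothelium and blood (-0.10 to 0.75), trophoblast (-0.40 to 0.46), the whole Wnt pathway (-0.17 to 0.05), Notch (-0.01 to 0.18), Hedgehog (-0.17 to 0.07), sterol synthesis (-0.06 to 0.01) and interferon genes (-0.20 to 0.12). The median of dorsal neural tube and crest ran from -1.84 to -0.75, of neural progenitors from -1.55 to -0.68, of heart muscle from 0.30 to 0.99, of endocrine genes from 0.60 to 0.98, of Wnt targets from -1.43 to -0.89 and of hypoxia-induced genes from 0.98 to 1.09. Among 158 genes named in the text, 131 were 2-fold apart; without shared-sequence probe sets Gng4 turned to a log2 difference of -0.87. Some of these genes lay below 2-fold under an alternative: 17 with log2(signal + floor), 15 when probe sets were averaged and 11 at the 65th percentile floor. Dim signals limit what can be read from hormones and progenitor factors near the floor. No paired analysis was possible because each group has 1 array and the comparison comes from no test.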

Other observations

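Genes of secretion, signalling and tissue structure outside the comparisons above also differed between the day 8 arrays. Rab27b, which docks secretory granules, had a signal of 101 in the control and 495 with MPA (4.90-fold higher), and the signalling proteins Gng4 (126 against 742) and Rgs17 (216 against 1141) were higher as well, although a second probe set of Gng4 was not. Nrn1, a neurite growth factor, was at least 5.87-fold higher and Nptx1, a neuronal pentraxin, at least 5.51-fold on 1 of its 2 probe sets (the other read 109 and 102), so not all genes known from neurons were lower. Immediate early genes, which respond within minutes to outside signals, were higher in 21 of 26 cases with a median of 0.51. By 2-fold or more, 4 were higher and 2 were lower. The higher ones included Klf4 (672 against 1956) and Ier3 (359 against 990.1). Ier3 had read 1694 and 315 at day 6.

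Basement membrane and integrin genes were higher in 18 of 26 cases (median 0.28). The laminin chains parted: Lama5, of mature epithelial basement membrane, stood at 298 in the control and 684 with MPA, and Lama1, of the earliest embryonic basement membrane, at 1178 and 576. Of 23 migration cue genes 15 were higher (median 0.34), including the guidance cues Ntn1 (745 against 1704) and Sema3c (2988 against 6992). Of 14 metallothionein and oxidative stress genes 11 were higher (median 0.38), with Gpx2, a glutathione peroxidase of epithelia, the single member that was 2-fold apart (114 against 325). Of 38 genes of BMP and TGF-beta signalling 22 were higher, Tgfb3 among them (153 against 463), and the BMP target Id3 was 2.25-fold lower (7346 against 3266). Vegfc, the growth factor of lymphatic vessels, was 3.61-fold lower (1038 against 288) and 2-fold or more lower on all 3 of its probe sets.

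Of the further lists, 20 of 26 genes of endoplasmic reticulum chaperones and the unfolded protein response were lower (median -0.25), 23 of 37 lysosome and autophagy genes were higher (median 0.16), 16 of 26 genes of the BCL2 family and death receptors were higher (median 0.19), 15 of 25 FGF pathway genes were higher (median 0.15), 9 of 13 genes of parietal and primitive endoderm were higher (median 0.29), and 8 of 13 imprinted growth genes were higher (median 0.08). Interferon response and antigen presentation genes were split, 10 higher and 11 lower. Of 9 trophoblast genes 6 were higher (median 0.07).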
